A study of Mus musculus with 8 samples.

Results

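Ionocytes are rare, mitochondria-rich epithelial cells of the airway, and close relatives of theirs are found in the salivary duct, the inner ear and the kidney, where they are called intercalated cells. The forkhead transcription factor Foxi1 is the master regulator of these cells, and it drives the genes of a plasma membrane proton pump, the V-ATPase, in forms of its subunits that few other cells use. In the airway, ionocytes are known for the chloride channel Cftr, and in secretory epithelia the cotransporter Slc12a2 loads chloride into the cell on the side away from the lumen. The medulla of the thymus holds epithelial cells that imitate such peripheral cell types, called mimetic cells.

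The 7 genes described here as an ionocyte set are Foxi1, Ascl3, Cftr, Atp6v1b1, Atp6v0d2, Atp6v1g3 and Slc12a2. They were chosen by name and found by their gene identifiers among the 25466 genes of the count table. The data are RNA-seq of medullary thymic epithelial cells (mTECs) of wild-type mice, FACS-isolated from the thymus by the surface protein Tspan8 and by MHC class II. The 4 subsets, Tspan8neg MHCIIlo, Tspan8neg MHCIIhi, Tspan8pos MHCIIhi and Tspan8pos MHCIIlo, had 2 libraries each, labelled as biological replicates, and no subset received a treatment or carried a transgene. All were sorted as mTECs and not as ionocytes, so each value is an average over every mTEC of the gate. In such bulk samples, fewer cells that express a gene and less of its RNA per cell cannot be told apart.

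Library totals were 1941518 to 7783841 counts, a 4.01-fold range, and the smallest and the largest library were both Tspan8pos MHCIIlo. A gene with under 3 counts in a library was taken as not detected there. These 3 counts were worth 0.385 to 1.65 CPM (counts per 1000000 counts), limits that cover counting error only. Tspan8 itself was at 3.65 to 14.6 CPM in the 4 Tspan8neg libraries and at 347 to 404 CPM in the 4 Tspan8pos libraries. The MHCII gene H2-Ab1 was higher in MHCIIhi than in MHCIIlo within each Tspan8 level, at 4990 and 5100 against 2070 and 1700 CPM in Tspan8neg cells and at 2430 and 2620 against 518 and 489 CPM in Tspan8pos cells. The 7 mTEC markers summed to 4410 to 7200 CPM in every library.

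The genes fell into 3 groups by level. Cftr, Atp6v1b1 and Slc12a2 were at 3 counts or more in all 8 libraries, and Foxi1 was in 7 of 8, with 1 count in the first Tspan8neg MHCIIlo library. Atp6v0d2 was under 3 counts in 2 libraries, Atp6v1g3 in 3 and Ascl3 in 5. Ascl3 and Atp6v1g3 did not pass the filter on low counts, and the other 5 genes were tested among 17006 genes in all. Atp6v0d2 passed through the Tspan8neg MHCIIhi libraries, where it is high, with only 1 further library at the required level.

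**Figure D1:**
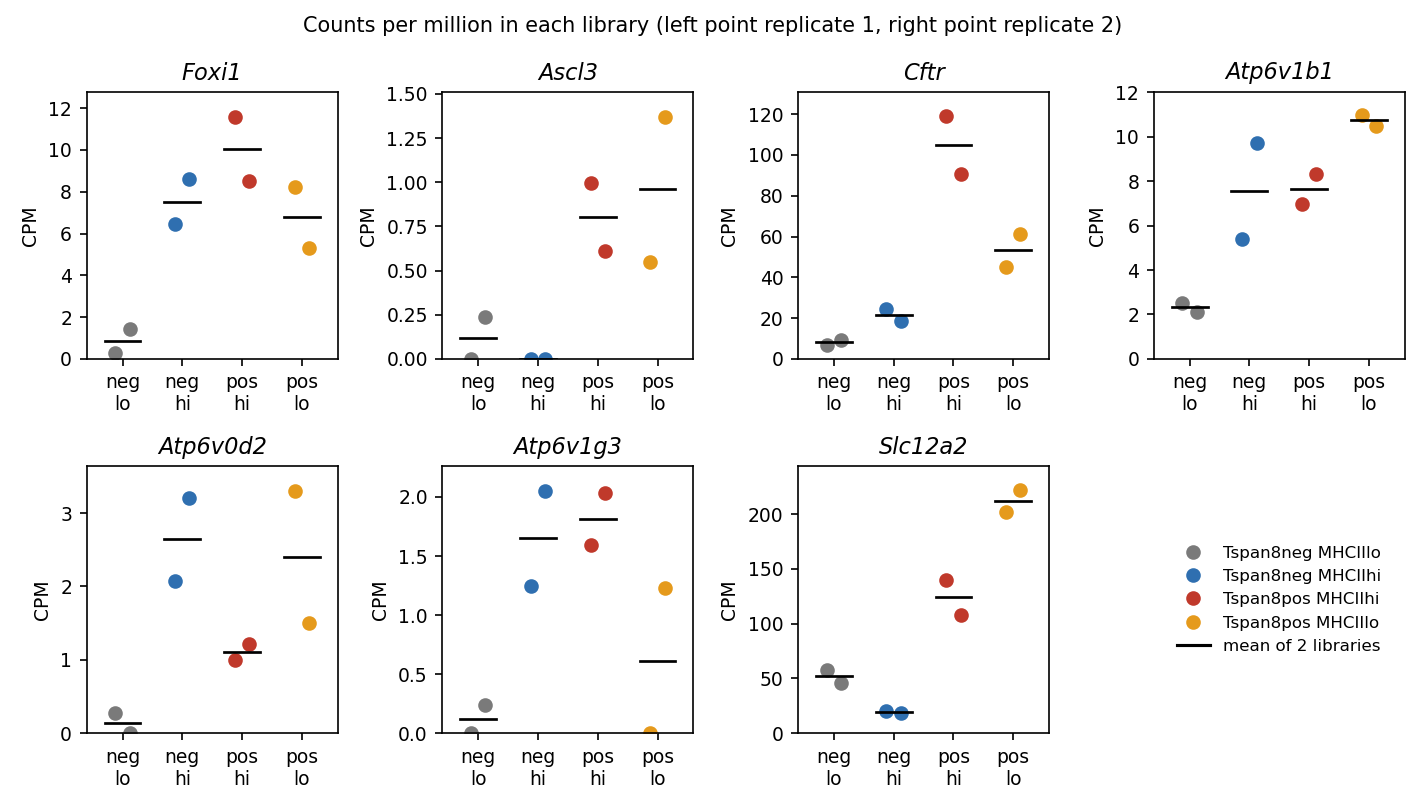
CPM (linear axes from 0) of the 7 genes in the 8 libraries, with 1 panel per gene, points for the 2 libraries of each subset and a line for their mean. Foxi1 is lowest in Tspan8neg MHCIIlo, Cftr is highest in Tspan8pos MHCIIhi, at 119 and 90.8 CPM, and Slc12a2 is highest in Tspan8pos MHCIIlo, at 202 and 222 CPM.

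The transcription factors come first. Foxi1 (ENSMUSG00000047861.2, GRCm38 chromosome 11, 34204338 to 34208089, minus strand) was at 0.281 and 1.41 CPM in Tspan8neg MHCIIlo, 6.45 and 8.59 in Tspan8neg MHCIIhi, 11.6 and 8.53 in Tspan8pos MHCIIhi, and 8.24 and 5.32 in Tspan8pos MHCIIlo. The Tspan8neg MHCIIlo libraries lay below the 6 others, which overlapped one another. The subset means were 0.848 ± 0.802, 7.52 ± 1.51, 10.04 ± 2.13 and 6.78 ± 2.07 CPM in the same order (SD, n = 2 each). Foxi1 rose with Tspan8 within MHCIIlo by a log2 fold change of 2.81 ± 0.61 (SE; adjusted p = 0.00347, edgeR). Within MHCIIhi the difference was 0.40 ± 0.41 (adjusted p = 0.469, edgeR), which did not pass. Foxi1 was thus detected in Tspan8neg MHCIIhi cells too, where Tspan8 was low, and no pair among the 3 upper subsets differed beyond its spread, with adjusted p of 0.366 to 0.672 (edgeR).

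Ascl3, a basic helix-loop-helix factor of ionocytes and salivary duct progenitors (ENSMUSG00000035951.2, chromosome 7, 109727465 to 109731726, minus strand), was the scarcest of the 7. Its counts were 0 and 1 in Tspan8neg MHCIIlo, 0 and 0 in Tspan8neg MHCIIhi, 5 and 3 in Tspan8pos MHCIIhi, and 1 and 10 in Tspan8pos MHCIIlo. Of its 20 counts, 19 came from Tspan8pos libraries. Ascl3 was at least 3.38-fold higher in Tspan8pos MHCIIhi than in Tspan8neg MHCIIhi, taking 3 counts over the group as the floor. Within MHCIIlo the ratio of summed counts was 9.38, with an exact 95% counting interval of 1.36 to 404 that takes no account of the spread between libraries. Without the filter, Ascl3 was called in none of the 7 comparisons, and its lowest adjusted p was 0.0262 (edgeR), for Tspan8pos MHCIIlo over Tspan8neg MHCIIhi.

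Since Foxi1 is a forkhead factor, the 250 bases before the RefSeq start of the genes were searched for the letters TGTTTAC and TGTTTA on both strands, the shorter being part of the longer. The E-box strings CAGCTG and CAGGTG were searched for as well. Promoters were at hand for 5 of the 7 genes, Foxi1, Ascl3, Cftr, Atp6v1b1 and Atp6v1g3. The pair below are those with a forkhead match, shown with these matches in capitals, 5′ to 3′ on the strand of the gene. Atp6v1b1 is from chr6:83742767-83743016, plus strand, and Ascl3 from chr7:109731733-109731982, minus strand (RefSeq, GRCm38.p6).
Atp6v1b1: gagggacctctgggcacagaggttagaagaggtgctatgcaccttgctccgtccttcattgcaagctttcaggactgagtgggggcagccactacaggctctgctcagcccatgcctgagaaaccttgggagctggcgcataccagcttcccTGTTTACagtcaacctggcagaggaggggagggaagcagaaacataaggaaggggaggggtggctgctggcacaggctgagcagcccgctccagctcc
Ascl3: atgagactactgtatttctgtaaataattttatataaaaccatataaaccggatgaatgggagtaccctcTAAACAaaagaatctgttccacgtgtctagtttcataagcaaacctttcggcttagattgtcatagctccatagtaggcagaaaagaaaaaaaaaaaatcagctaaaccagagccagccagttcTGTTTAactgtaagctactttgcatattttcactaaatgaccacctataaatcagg

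The Atp6v1b1 window held TGTTTAC once, 98 to 92 bases before the start, a string that 3.17% of 32851 promoter windows of this length hold. Ascl3 held the shorter TGTTTA once on each strand, 180 to 175 and 56 to 51 bases before the start, and 12.03% of windows hold that string. Foxi1 had no forkhead string but held CAGGTG, an E-box of the kind that helix-loop-helix factors bind, 75 to 70 bases before the start, which 17.22% of windows share. It was the only E-box match in the windows searched. The other E-box string, CAGCTG, is held by 13.0% of all windows. Each match given is of letters only. The Cftr window, without a match, was 76.4% G and C against a median of 52.4% over all windows.

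Of the chloride transporters, Cftr (ENSMUSG00000041301.15, chromosome 6, 18170687 to 18322768, plus strand), the cyclic AMP-gated chloride and bicarbonate channel, was at 7.02 and 9.43 CPM in Tspan8neg MHCIIlo, 24.3 and 18.8 in Tspan8neg MHCIIhi, 119 and 90.8 in Tspan8pos MHCIIhi, and 45.1 and 61.2 in Tspan8pos MHCIIlo. No pair of subsets overlapped. Cftr rose with Tspan8 at both MHCII levels, by a log2 fold change of 2.71 ± 0.26 within MHCIIlo (adjusted p = 1.24e-05, edgeR) and of 2.29 ± 0.22 within MHCIIhi (adjusted p = 1.2e-05, edgeR). It also rose from MHCIIlo to MHCIIhi in Tspan8neg cells, by 1.36 ± 0.27 (adjusted p = 0.00191, edgeR). In Tspan8pos cells the difference with MHCII was 0.94 ± 0.21 (adjusted p = 0.0091, edgeR), past the p threshold but under the fold limit of 1 on the log2 scale. Cftr overlaps 2 other annotated genes, Gm15595 on its own strand and Gm15592 on the opposite one, so that its counts may hold reads of these.

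Slc12a2 (ENSMUSG00000024597.10), the sodium, potassium and chloride cotransporter of the basolateral membrane, was at 57.9 and 46.0 CPM in Tspan8neg MHCIIlo, 20.0 and 18.7 in Tspan8neg MHCIIhi, 140 and 108 in Tspan8pos MHCIIhi, and 202 and 222 in Tspan8pos MHCIIlo. Here too the libraries of no pair of subsets overlapped, but the order was another one, with the MHCIIlo subset above the MHCIIhi subset at each Tspan8 level. Slc12a2 rose with Tspan8 by 2.04 ± 0.18 within MHCIIlo (adjusted p = 5.69e-06, edgeR) and by 2.68 ± 0.18 within MHCIIhi (adjusted p = 1.28e-06, edgeR). From MHCIIlo to MHCIIhi its log2 fold change was -1.42 ± 0.19 in Tspan8neg cells (adjusted p = 0.000142, edgeR), a fall, and -0.78 ± 0.16 in Tspan8pos cells (adjusted p = 0.00786, edgeR), which missed the fold limit. In Tspan8neg cells Slc12a2 thus fell where Foxi1, Cftr and Atp6v1b1 rose. The summed level of 4 tuft cell markers was likewise highest in Tspan8pos MHCIIlo and lowest in Tspan8neg MHCIIhi, at 837 and 1130 CPM in Tspan8neg MHCIIlo, 127 and 139 in Tspan8neg MHCIIhi, 874 and 1000 in Tspan8pos MHCIIhi and 5270 and 5420 in Tspan8pos MHCIIlo, with overlap only of Tspan8neg MHCIIlo and Tspan8pos MHCIIhi. That pair did not overlap for Slc12a2, and the part of these markers in the Slc12a2 result was not tested.

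The remaining genes encode subunits of the proton pump. Atp6v1b1 (ENSMUSG00000006269.7, chromosome 6, 83742990 to 83758855, plus strand), the B subunit of the catalytic head that intercalated cells and ionocytes use in place of the common Atp6v1b2, was at 2.53 and 2.12 CPM in Tspan8neg MHCIIlo, 5.41 and 9.74 in Tspan8neg MHCIIhi, 6.97 and 8.33 in Tspan8pos MHCIIhi, and 11.0 and 10.5 in Tspan8pos MHCIIlo. Tspan8neg MHCIIlo was the low subset, as for Foxi1, and the MHCIIhi subsets overlapped. Atp6v1b1 rose with Tspan8 within MHCIIlo by 2.20 ± 0.43 (adjusted p = 0.00192, edgeR), and within MHCIIhi the log2 fold change was -0.01 ± 0.35 (adjusted p = 0.985, edgeR). In Tspan8neg cells it rose from MHCIIlo to MHCIIhi by 1.73 ± 0.42 (adjusted p = 0.00699, edgeR).

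Atp6v0d2, a d subunit of the membrane sector that osteoclasts and intercalated cells use (ENSMUSG00000028238.6, chromosome 4, 19876841 to 19922605, minus strand), had counts of 1 and 0 in Tspan8neg MHCIIlo, 10 and 25 in Tspan8neg MHCIIhi, 5 and 6 in Tspan8pos MHCIIhi, and 6 and 11 in Tspan8pos MHCIIlo. That came to 2.08 and 3.20 CPM in Tspan8neg MHCIIhi, above 0.996 and 1.22 CPM in Tspan8pos MHCIIhi. Within MHCIIlo, where Tspan8pos cells had 3.3 and 1.5 CPM, the direction was the opposite one. Within MHCIIlo the Tspan8 difference did not pass, with a log2 fold change of 3.79 ± 1.15 (adjusted p = 0.0214, edgeR). Comparisons with Tspan8neg MHCIIhi are given for Atp6v0d2 as a description, with no test, since it passed the filter through that subset. The Tspan8 log2 fold change within MHCIIhi was -1.26 ± 0.71. The ratio of summed counts of Tspan8neg MHCIIhi over Tspan8neg MHCIIlo was 21.7, with an exact 95% counting interval of 3.64 to 879. The summed level of 5 macrophage and dendritic cell markers was also high in Tspan8neg MHCIIhi, at 345 and 402 CPM, followed by Tspan8pos MHCIIhi at 281 and 283 CPM and the MHCIIlo subsets at 42.4 to 103 CPM, and that of 3 osteoclast markers was at 9.27 to 31.9 CPM over all libraries, highest in Tspan8pos MHCIIhi. Lyz2 alone was at 279 and 331 CPM in Tspan8neg MHCIIhi, where Csf1r, Adgre1 and C1qa were also highest by mean. Itgax went the other way, at 4.16 and 6.15 CPM there against 9.27 and 25.7 in Tspan8neg MHCIIlo. Of the osteoclast markers, Acp5 was highest in Tspan8pos MHCIIhi, at a mean of 22.96 against 10.06 CPM in Tspan8neg MHCIIhi. Ctsk and Ocstamp were highest by mean in Tspan8neg MHCIIhi, at 5.89 and 2.46 against 4.93 and 1.205 CPM. None of these markers was at 0 in every library, and their part in the Atp6v0d2 result was not tested.

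Atp6v1g3, the G subunit of the stalk that is largely restricted to the kidney (ENSMUSG00000026394.5, chromosome 1, 138273738 to 138289462, plus strand), had counts of 0 and 1 in Tspan8neg MHCIIlo, 6 and 16 in Tspan8neg MHCIIhi, 8 and 10 in Tspan8pos MHCIIhi, and 0 and 9 in Tspan8pos MHCIIlo. The MHCIIhi libraries, at 1.25 to 2.05 CPM, were all above the MHCIIlo libraries, at 0 to 1.23 CPM. A count of 0 in the smallest library allows up to 1.65 CPM, which is within the range of the MHCIIhi libraries. The ratio of summed counts of Tspan8neg MHCIIhi over Tspan8neg MHCIIlo was 13.6, with an exact 95% counting interval of 2.20 to 562. In the fit without a filter its lowest adjusted p over the 7 comparisons was 0.0406 (edgeR), for Tspan8pos MHCIIhi over Tspan8neg MHCIIlo, and it was called in none.

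The first comparison over the set was of Tspan8pos with Tspan8neg cells, which addresses how cells that carry Tspan8 differ from other mTECs of the same MHCII level. Within MHCIIlo, 4 of the 5 tested genes, Foxi1, Cftr, Atp6v1b1 and Slc12a2, rose with Tspan8 and none fell, while 12.1% of all genes tested were called higher. Calls required both an adjusted p under 0.01 and a log2 fold change of 1 or more in size. Within MHCIIhi, only Cftr and Slc12a2 rose, 2 of the 4 genes tested other than Atp6v0d2, while 11.0% of all genes were called higher. The median log2 fold change of the 5 tested genes was 2.71 within MHCIIlo, against -0.03 at both levels over all genes. Within MHCIIhi no median is given, since Atp6v0d2 would enter it. The other genes were there at 0.40 (Foxi1), 2.29 (Cftr), -0.01 (Atp6v1b1) and 2.68 (Slc12a2). The count within MHCIIlo fell to 2 without the second Tspan8pos MHCIIlo library, and the Foxi1 call was lost without either Tspan8pos MHCIIlo library or without the first Tspan8neg MHCIIlo library, with adjusted p of 0.0115 to 0.0163 (edgeR), and in a fit of only the 4 MHCIIlo libraries (adjusted p = 0.0172, edgeR).

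The difference between these 2 effects was tested as an interaction. None of the 4 genes tested other than Atp6v0d2 was called, while 4.60% of all genes were. DESeq2 called 0 of the 4 genes to which it gave an adjusted p, beside 908 of 14604 genes in all. The interaction was 2.41 ± 0.74 for Foxi1 (adjusted p = 0.0591, edgeR) and 2.21 ± 0.56 for Atp6v1b1 (adjusted p = 0.027, edgeR), both with the larger Tspan8 effect in MHCIIlo. For Atp6v0d2, which passed the filter through Tspan8neg MHCIIhi, the interaction was 5.05 ± 1.36 in the same direction and is given with no test. For Cftr it was 0.42 ± 0.34 (adjusted p = 0.482, edgeR) and for Slc12a2 -0.65 ± 0.25 (adjusted p = 0.12, edgeR).

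**Figure D2:**
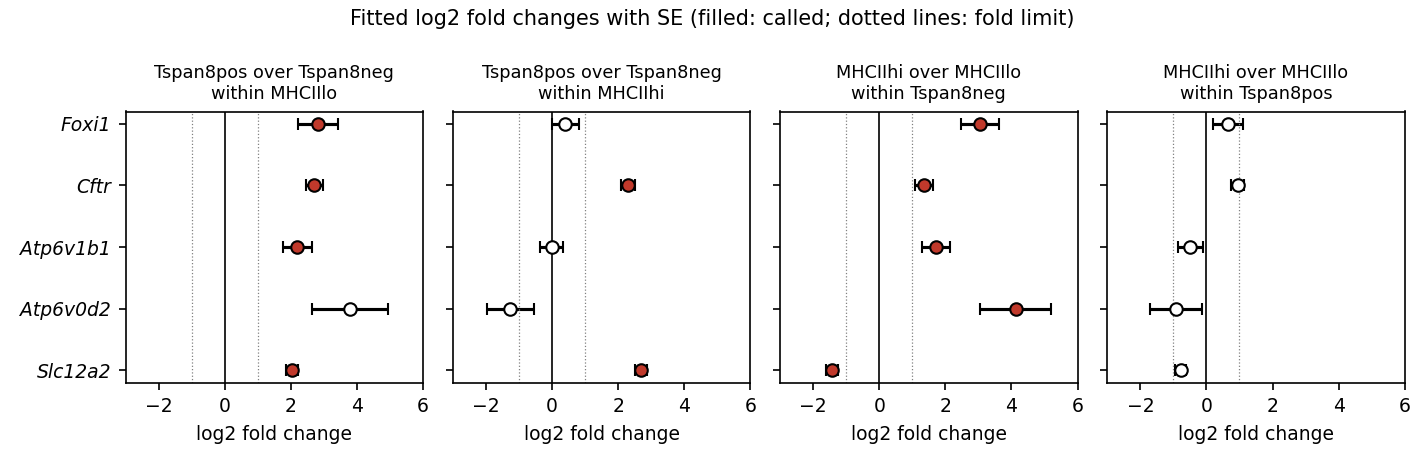
Fitted log2 fold changes of the 5 tested genes in 4 comparisons, with bars of 1 standard error, filled points for called genes and dotted lines at the fold limit. All 5 points are filled for MHCIIhi over MHCIIlo within Tspan8neg cells, with Slc12a2 to the left of 0, and none is filled for the same comparison within Tspan8pos cells. The filled Atp6v0d2 point is not counted as a result, since the gene passed the filter through the higher of these subsets.

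The study describes Tspan8neg MHCIIlo as a mixture of immature and mimetic mTECs. In its putative order of development, Tspan8neg MHCIIhi and Tspan8pos MHCIIhi cells follow, and Tspan8pos MHCIIlo cells come last. Between MHCII levels, the 4 genes tested other than Atp6v0d2 all differed in Tspan8neg cells. Foxi1, Cftr and Atp6v1b1 rose from MHCIIlo to MHCIIhi, beside 13.1% of all genes called higher, and Slc12a2 fell, beside 9.67% called lower. For Foxi1 the rise was 3.06 ± 0.58 on the log2 scale (adjusted p = 0.00148, edgeR), or 8.33-fold. The Atp6v1b1 call was lost without any 1 of 7 libraries (all but the first Tspan8neg MHCIIhi) and in DESeq2. Without the second Tspan8neg MHCIIhi library the Foxi1 call was lost too (adjusted p = 0.0128, edgeR), which left 2 genes, Cftr and Slc12a2. In Tspan8pos cells, none of the 5 genes was called between MHCII levels by edgeR, beside 7.21% of all genes, and none by DESeq2. There Cftr and Slc12a2 passed the p threshold but not the fold limit.

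Thymocyte markers set the low subset apart as well. The 6 markers, among them Cd3e, summed to 336 and 933 CPM in Tspan8neg MHCIIlo against 62.8 to 196 CPM in the 6 other libraries, and their part in the low Foxi1, Atp6v1b1 and Cftr of that subset was not tested. The 2 endothelial markers were also highest there, at 98.9 and 82.0 CPM against 11.6 to 58.8 CPM elsewhere, while the 3 B cell markers were at 6.05 to 33.5 CPM and the 3 fibroblast markers at 22.1 to 109 CPM over all libraries.

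The pairs of subsets that differ in both surface proteins complete the comparison. Between Tspan8pos MHCIIhi and Tspan8neg MHCIIlo, 4 of the 5 tested genes rose, Foxi1, Cftr, Atp6v1b1 and Slc12a2, beside 14.4% of all genes called higher, with Cftr at 3.66 ± 0.25 (adjusted p = 1.03e-06, edgeR), and the Atp6v1b1 call was lost in DESeq2, without any 1 of the 6 libraries outside Tspan8neg MHCIIhi (adjusted p = 0.0114 to 0.0393, edgeR) and with only the 4 libraries compared. Between Tspan8pos MHCIIlo and Tspan8neg MHCIIhi, Cftr and Slc12a2 were higher, beside 14.7% of all genes, with Slc12a2 at 3.46 ± 0.19 (adjusted p = 1.27e-07, edgeR). There Foxi1 and Atp6v1b1 differed by -0.25 and 0.47 on the log2 scale and did not pass, and Atp6v0d2 by -0.34, given with no test. The Cftr call was lost without the second library of either subset. Its log2 fold change was then 1.06 without the Tspan8neg MHCIIhi library and 1.08 without the Tspan8pos MHCIIlo library.

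Levels of different genes were compared per kilobase of exon. Per kilobase, Cftr exceeded Foxi1 by a ratio of 3.12 and 3.23 in Tspan8pos MHCIIhi and of 1.66 and 3.49 in Tspan8pos MHCIIlo, while in Tspan8neg MHCIIhi the ratio was 1.15 and 0.666. The Tspan8neg MHCIIhi libraries were thus those with the least Cftr for their Foxi1. The Tspan8neg MHCIIlo ratios of 7.59 and 2.02 rest on 1 and 6 counts of Foxi1. Atp6v1b1 per Foxi1 was between 0.325 and 1.06 in the 6 libraries outside Tspan8neg MHCIIlo, and the ranges of Tspan8neg MHCIIhi and Tspan8pos MHCIIhi overlapped. Slc12a2 per Foxi1 ran from 0.470 and 0.668 in Tspan8neg MHCIIhi through 2.62 and 2.73 in Tspan8pos MHCIIhi to 5.28 and 9.01 in Tspan8pos MHCIIlo, with no overlap.

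Each of the pump subunits has a common relative that most cells use, and the share of the rarer form within its family was low throughout. Per kilobase of exon, Atp6v1b1 made up 2.33% to 5.77% of the B subunit RNA over the 8 libraries, the rest being Atp6v1b2. Atp6v0d2 made up 0% to 2.70% of the d subunits, with Atp6v0d1, and Atp6v1g3 0% to 3.33% of the G subunits, with Atp6v1g1 and Atp6v1g2. The common B subunit Atp6v1b2 rose with Tspan8 within MHCIIlo itself, by 1.59 ± 0.13 (adjusted p = 4.85e-06, edgeR), and was at 0.83 ± 0.13 within MHCIIhi (adjusted p = 0.000449, edgeR), under the fold limit. Atp6v1g1 rose within MHCIIhi, by 1.55 ± 0.16 (adjusted p = 2.47e-05, edgeR), and Atp6v0d1 and Atp6v1g2 were called in neither comparison, with log2 fold changes of 0.91 and 0.55 for Atp6v0d1 and of 0.27 and 0.05 for Atp6v1g2 within MHCIIlo and MHCIIhi. Reads that similar subunits share could have been divided between them by the estimate of counts.

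**Figure D3:**
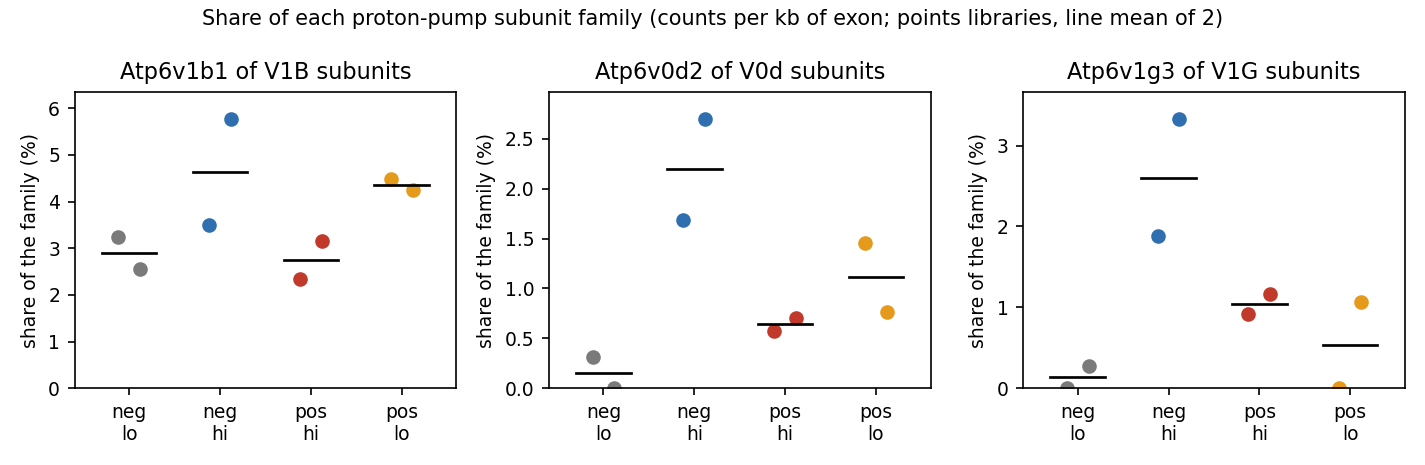
Share of Atp6v1b1, Atp6v0d2 and Atp6v1g3 in the RNA of their subunit family, in percent of counts per kilobase of exon (linear axes from 0), with points for the 2 libraries of each subset and a line for their mean. Atp6v0d2 and Atp6v1g3 have their highest shares in Tspan8neg MHCIIhi, at up to 2.70% and 3.33%.

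No share passed 0.05 between the 4 Tspan8pos and 4 Tspan8neg libraries or between the 4 MHCIIhi and 4 MHCIIlo libraries, in exact two-sided permutation tests of the means with p adjusted over the 6 tests. The strongest was the share of Atp6v1g3, 1.82% ± 1.08 in MHCIIhi against 0.334% ± 0.503 in MHCIIlo (SD, n = 4 each; exact permutation p = 0.0571, adjusted p = 0.343), where 0.029 is the smallest p that this design allows. Adjusted over the 6 tests, 1 share alone at that minimum would have 0.17, so no single share could have passed. For Atp6v1b1 the means were 3.55% ± 0.996 in Tspan8pos and 3.76% ± 1.39 in Tspan8neg libraries (SD, n = 4 each; exact permutation p = 0.829, adjusted p = 0.971).

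The rest of the pump was described with 22 further subunits and accessory proteins, of which 21 were tested. With Tspan8, 8 of the 21 rose within MHCIIlo, beside 12.1% of all genes, and 3 within MHCIIhi, near the 11.0% of all genes. None fell, beside 9.34% and 7.45% of all genes, and the median log2 fold changes were 0.91 and 0.55. Without a limit on the fold change, 18 and 10 of the 21 were called in either direction, beside 27.9% and 25.0% of all genes. Tcirg1 was lower in Tspan8pos cells within MHCIIlo, at 100 and 97.7 CPM against 194 and 183 CPM. Atp6v0a4, the a subunit of the renal pump, was at 0.843 and 0.236 CPM in Tspan8neg MHCIIlo, 7.90 and 9.48 in Tspan8neg MHCIIhi, 10.6 and 7.92 in Tspan8pos MHCIIhi, and 14.8 and 18.8 in Tspan8pos MHCIIlo, so that its lowest subset was that of Foxi1 and Atp6v1b1. It rose with Tspan8 within MHCIIlo by 4.99 ± 0.51 (adjusted p = 2.04e-05, edgeR) and differed by 0.08 ± 0.33 within MHCIIhi (adjusted p = 0.873, edgeR). Atp6v1c2, a C subunit of kidney and lung, followed Tspan8 at both levels, at 1.46 to 5.42 CPM in the Tspan8neg and 43.8 to 124 CPM in the Tspan8pos libraries, with log2 fold changes of 4.78 ± 0.32 and 4.45 ± 0.33 (adjusted p = 9.05e-07 and 2.26e-06, edgeR). Both genes overlap others, Atp6v1c2 the gene Pdia6 on the opposite strand and Atp6v0a4 the genes D630045J12Rik, Tmem213 and Gm23231. Of the subunits used by most cells, Atp6v1e1 rose within MHCIIlo by 1.36 ± 0.14 (adjusted p = 1.98e-05, edgeR) and Atp6v0a1 by 1.01 ± 0.13 (adjusted p = 8.88e-05, edgeR). The latter was at the fold limit, and its call was lost without the second Tspan8neg MHCIIlo, either Tspan8neg MHCIIhi or the second Tspan8pos MHCIIlo library, with a lowest log2 fold change of 0.94.

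A list of 25 other genes of ionocytes and intercalated cells moved in both directions. Of the 23 tested, 7 rose and 5 fell with Tspan8 within MHCIIlo, beside 12.1% and 9.34% of all genes, and 5 rose and 5 fell within MHCIIhi, beside 11.0% and 7.45%. The medians were 1.52 and -0.39 on the log2 scale, and the first was the same with the genes at 0 in a subset set to their bound. Rhbg, an ammonium transporter, rose by 5.75 ± 0.35 within MHCIIlo and 3.12 ± 0.24 within MHCIIhi (adjusted p = 5.02e-07 and 3.02e-06, edgeR). Slc4a9, an anion exchanger of intercalated cells, rose by 4.59 ± 0.38 and 1.90 ± 0.22 (adjusted p = 4.31e-06 and 5.74e-05, edgeR). The carbonic anhydrase Car12 rose by 3.25 ± 0.27 and 3.06 ± 0.24, and Car2, which supplies protons in intercalated cells, rose by 3.06 ± 0.26 within MHCIIlo and was at 0.78 ± 0.24 within MHCIIhi. Tfcp2l1, a transcription factor of the renal collecting duct, rose at both levels, by 2.57 ± 0.16 and 1.70 ± 0.15, and so did Hepacam2, by 1.69 ± 0.15 and 2.92 ± 0.17. Hepacam2 is also found in tuft cells, whose summed markers are given above. The genes named so far are those of lowest adjusted p, and all rose within MHCIIlo. Among those lower in Tspan8pos cells, given with no test, Insrr was at 41.6 and 46.7 CPM in Tspan8neg MHCIIlo against 7.7 and 7.1 in Tspan8pos MHCIIlo. Within MHCIIhi, Rhcg was at 20.6 and 25.8 CPM in Tspan8neg against 4.38 and 7.72 in Tspan8pos cells.

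The Foxi relatives were scarce. Foxi2 had 0 to 21 counts per library, at 0 and 0.472 CPM in Tspan8neg MHCIIlo, 2.08 and 2.69 in Tspan8neg MHCIIhi, 0.996 and 0.610 in Tspan8pos MHCIIhi, and 2.20 and 2.05 in Tspan8pos MHCIIlo. Within MHCIIlo it was not called, with a log2 fold change of 2.93 ± 1.00 (adjusted p = 0.0362, edgeR). Like Atp6v0d2, Foxi2 passed the filter through Tspan8neg MHCIIhi. Its log2 fold change of -1.55 ± 0.75 within MHCIIhi is therefore given with no test. Foxi3 had at most 6 counts in a library and was not tested.

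**Figure D4:**
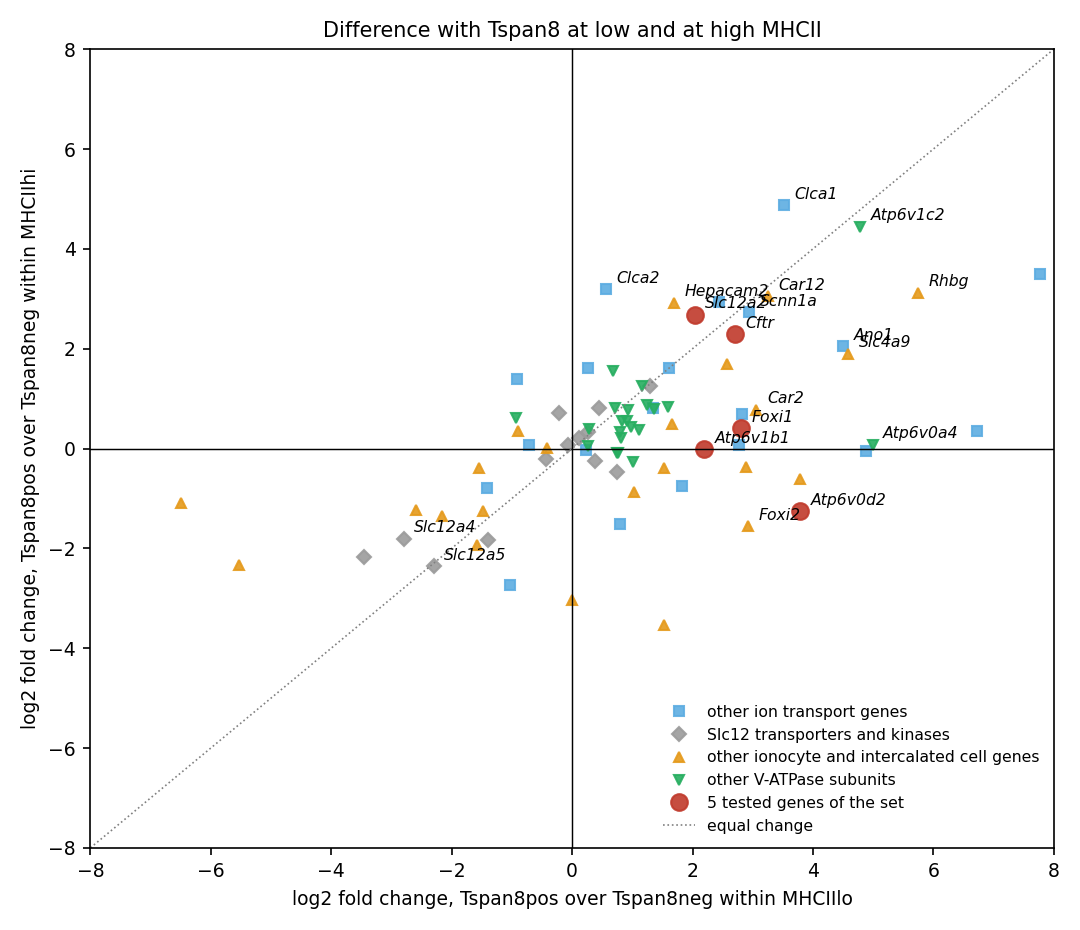
Log2 fold changes of Tspan8pos over Tspan8neg cells within MHCIIlo (horizontal) and within MHCIIhi (vertical) for the 5 tested genes (red circles) and the genes of 4 related lists, with a dotted line of equal change. Cftr and Slc12a2 lie near that line, while Foxi1, Atp6v1b1 and Atp6v0a4 lie near the horizontal axis and Atp6v0d2 lies below it.

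Slc12a2 was set beside 14 genes of its transporter family and of the Wnk kinase pathway that regulates it, of which 13 were tested. Only Wnk4 of these rose with Tspan8, by 1.29 ± 0.33 within MHCIIlo and 1.25 ± 0.29 within MHCIIhi (adjusted p = 0.00969 and 0.00567, edgeR), while 12.1% and 11.0% of all genes were called higher. Both calls were lost in DESeq2, and without any 1 of 7 libraries within MHCIIlo and any 1 of the 4 MHCIIhi libraries within MHCIIhi. The potassium and chloride cotransporters Slc12a4 and Slc12a5, which carry chloride out of the cell, fell at both levels, 2 of the 13 beside 9.34% and 7.45% of all genes called lower. Slc12a4 was at 121 and 74.5 CPM in Tspan8neg MHCIIlo and at 33.2 to 35.1 CPM in Tspan8neg MHCIIhi against 9.14 to 14.8 CPM in the Tspan8pos libraries, a log2 fold change of -2.79 ± 0.25 and -1.80 ± 0.25 (adjusted p = 6.89e-06 and 0.000203, edgeR). Slc12a5 changed by -2.29 ± 0.38 and -2.35 ± 0.29 (adjusted p = 0.000598 and 0.000103, edgeR), and the first call was lost without the second Tspan8pos MHCIIlo library (adjusted p = 0.0169, edgeR). The medians of the 13 genes were -0.07 and -0.21, and within MHCIIlo 0.02 over the 12 genes that were not at 0 in a subset.

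Of 20 genes of epithelial ion transport, all tested, 12 rose and 1 fell with Tspan8 within MHCIIlo, beside 12.1% and 9.34% of all genes, and 9 rose and none fell within MHCIIhi, beside 11.0% and 7.45%. Their medians were 1.72 and 0.76 on the log2 scale. The sodium pump subunit Atp1b1 rose by 2.43 ± 0.15 and 2.93 ± 0.15, and the epithelial sodium channel subunit Scnn1a by 2.94 ± 0.18 and 2.74 ± 0.17 (adjusted p of 2.63e-07 to 7.69e-07, edgeR). Ano1, a calcium-gated chloride channel of secretory epithelia, was at 2.12 and 2.53 CPM in Tspan8neg MHCIIlo, 10.4 and 13.1 in Tspan8neg MHCIIhi and 43.4 to 60.2 in the Tspan8pos libraries, so that like Cftr it was higher in each Tspan8pos library than in any Tspan8neg library. Clca1, a secreted regulator of chloride channels made by goblet cells, was at 19.1 to 48.8 CPM in Tspan8neg and 336 to 1040 CPM in Tspan8pos libraries. Clca2 rose within MHCIIhi by 3.19 ± 0.23 and was at 0.57 ± 0.20 within MHCIIlo.

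Likeness of pattern over the 8 libraries was described with the Pearson correlation of log2 CPM among tested genes of at least 5 CPM on average, about 13066 for each gene. The 8 points share libraries and depth, and 8 libraries allow many genes a high correlation. Foxi1 was most like Sprr2i, Mfsd1 and Dnase1l3 (r = 0.99, 0.99 and 0.98). Cftr was most like Ssx2ip, Vav2 and Slc10a5 (r = 1.00, 0.99 and 0.99), and Slc12a2 was most like Tom1, Dip2a and Fyco1 (r = 1.00, 0.99 and 0.99). For Atp6v1b1 these were Tmx1, Dusp8 and Nadk, and for Atp6v0d2 Pcdhgc4, Sipa1l2 and Tvp23b. Within the set, Atp6v1b1 and Atp6v0d2 were most alike (r = 0.89), followed by Foxi1 and Atp6v1b1 (r = 0.84) and Foxi1 and Cftr (r = 0.82), while Slc12a2 had r = 0.18 with Foxi1 and 0.02 with Atp6v0d2. Even so, 677 genes were closer to Foxi1 than Atp6v1b1 was, 5.18% of those compared.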

How the data were processed

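RNA-seq of 8 libraries of FACS-isolated mouse mTECs was analysed, 2 for each of 4 subsets, grouped by the titles of the samples. The authors deposited expected counts per gene, as whole numbers without normalization; per the study's methods and the submitters' processing notes, reads were quantified with Salmon 1.8.0 on the Gencode mouse release 10 transcriptome (mm10), and the authors' own tests used DESeq2 1.30.0. These estimated counts were used as deposited, and rounding changed no value. The sources differ on the library kit, so strand is taken as unknown and overlapping genes as uncertain. Of 25466 identifiers, 25336 (99.49%) matched a symbol of Gencode release 21 (GRCm38). Each of the 8 columns belongs to a mapped library, and every gene listed is above 0 in at least 2 of them.

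Counts were tested with edgeR 4.0.16 in R 4.3.3 (quasi-likelihood test, TMM, filterByExpr on the 4 subsets, 1 fit of all 8 libraries, common dispersion 0.024), with Benjamini-Hochberg adjustment over 17006 genes and two-sided p. Standard errors were taken as the size of the log2 fold change over the square root of F. CPM use TMM effective library sizes, and log2 CPM a prior count of 2. DESeq2 1.42.0 was an alternative, as were its size factors, other filters and thresholds, a replicate block, the 4 libraries compared alone, and leaving out each library. The fit was tested on simulated data. Shares of subunit families used exact permutation tests (SciPy). In an exact permutation test, groups of 2 against 2 cannot go below p = 0.333, so none is given there. Nothing says that replicates came from separate mice or pools, so p-values measure the spread between these libraries.

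The 7 genes, the related lists and the comparisons were chosen with earlier results of these data known. Named are all 7 genes, the subunit and Foxi relatives, in each list up to 6 called genes of lowest adjusted p in either Tspan8 comparison, and the 3 genes most like each tested gene. Genes not reported here were left out of those named. No protein sequences were used here.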

Additional observations from a re-analysis of the deposited data

Results flagged for a closer look

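Atp6v0d2 and Foxi2 moved in opposite directions with Tspan8 in every library, upward within MHCIIlo and downward within MHCIIhi. The interactions of 5.05 for Atp6v0d2 and 4.48 for Foxi2 are given with no test, since both genes passed the filter through Tspan8neg MHCIIhi. Both rest on few counts.

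Over the 4 related lists, the interaction was called for 16 of 77 tested genes, beside 4.60% of all genes. Of these, 8 are among the genes named, which were chosen for low adjusted p in the Tspan8 comparisons. In Atp6v0a4 it was 4.91 (adjusted p = 0.000948, edgeR), in Atp6v0a1 1.29 (adjusted p = 0.0013), in Rhbg 2.63 (adjusted p = 0.00661), in Slc4a9 2.69 (adjusted p = 0.00562), in Car2 2.28 (adjusted p = 0.00242) and in Ano1 2.46 (adjusted p = 0.00264), so that these had the larger Tspan8 difference within MHCIIlo. The larger difference was within MHCIIhi for Hepacam2, at -1.23 (adjusted p = 0.00599), and Clca2, at -2.62 (adjusted p = 0.000593). In Rhbg, Slc4a9, Hepacam2 and Ano1 both differences were called and upward, and in the other 4 genes it was called at 1 MHCII level.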

How the results depend on the processing

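Of the 5 tested genes, Cftr and Slc12a2 kept their Tspan8 calls under every alternative run, and Ascl3 and Atp6v1g3 rest on too few counts to be tested. DESeq2 called Foxi1, Cftr and Slc12a2 between MHCII levels in Tspan8neg cells, beside 3275 of 17566 genes in all. The fit of only the 4 libraries compared also called 3, beside 3353 of 15909 genes. Without a limit on the fold change, Cftr and Slc12a2 passed between MHCII levels in Tspan8pos cells, beside 1542 of all 17006 genes. At an adjusted p under 0.05, Atp6v1b1 passed for the interaction, beside 1754 of all 17006 genes. Asking for 10 counts in each of 4 libraries removed Atp6v0d2. Deviations of libraries with the same replicate number correlated weakly between subsets (0.00402 to 0.0924), which cannot show whether the libraries were paired. With the replicate block, 1236 genes in place of 783 were called for the interaction, and the log2 fold change of Atp6v1b1 within MHCIIhi was 0.014 in place of -0.012. For the interaction, 1267 genes were called without a filter on low counts and 1754 at an adjusted p under 0.05, and between MHCII levels in Tspan8pos cells 1858 in place of 1226 at that threshold.

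Leaving out 1 library at a time, the tested genes called ranged from 2 to 4 for Tspan8 within MHCIIlo, 2 to 4 for MHCII in Tspan8neg cells and 1 to 2 for Tspan8pos MHCIIlo over Tspan8neg MHCIIhi. All genes called ranged from 2273 to 3740 and from 2045 to 3637 for Tspan8 within MHCIIlo and MHCIIhi, from 2360 to 3759 and from 427 to 1671 for MHCII in Tspan8neg and Tspan8pos cells, and from 189 to 1385 for the interaction, lowest without the second Tspan8pos MHCIIlo library. Fold changes that turned sign were small and not called. Between Tspan8pos MHCIIlo and Tspan8neg MHCIIhi, Foxi1 ranged from -0.518 to 0.129 and Atp6v0d2 from -0.825 to 0.306. Within MHCIIhi, Atp6v1b1 ranged from -0.426 to 0.424, Atp6v0a4 from -0.119 to 0.282 and Atp6v1g2 from -0.047 to 0.087, and Atp6v1g2 was at -0.010 with DESeq2 size factors and -0.008 in DESeq2. The cause of these changes was not tested.

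Of the related lists, the pump subunits called in either direction were 18 within MHCIIlo and 10 within MHCIIhi without a limit on the fold change, beside 27.9% and 25.0% of all genes. Of the Slc12 and kinase genes, 5 were called within MHCIIhi at an adjusted p under 0.05, beside 4101 of all 17006 genes. With only the 4 libraries compared 5 were called, beside 3963 of 16401 genes. Of the other ionocyte genes, 6 to 10 were called within MHCIIhi when 1 library was left out. Differences in subunit share, in percentage points, kept their sign with raw counts or the longest transcript. With 1 library left out, they ranged for Tspan8 from -0.613 to 0.458 (Atp6v1b1), -0.692 to 0.209 (Atp6v0d2) and -1.04 to 0.0717 (Atp6v1g3), and for MHCII from -0.632 to 0.513 (Atp6v1b1). By Spearman correlation, 0 of the 3 nearest genes remained for Foxi1 and 0 for Atp6v1b1, and 1 each for Atp6v0d2 and Slc12a2. Depth limits Ascl3, Atp6v0d2 and Atp6v1g3, whose lowest subset held 1 count or fewer, and for Ascl3 1 count decides which subset that is.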

Other observations

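Of the 23 tested genes of the list of other ionocyte and intercalated cell genes, 10 had their highest mean CPM in Tspan8neg MHCIIhi, 6 in Tspan8pos MHCIIhi, 3 in Tspan8pos MHCIIlo and 4 in Tspan8neg MHCIIlo. The next 3, of the first group, were chosen after their values were seen and are given with no test. Slc4a1, the chloride and bicarbonate exchanger of red cells and acid-secreting intercalated cells, was at 9.15 and 9.36 CPM there and at 0 to 2.03 CPM in the 6 other libraries. Aqp6, a water channel of intercalated cells, was at 3.33 and 3.59 CPM and at 0 to 0.406 CPM elsewhere. The ammonium channel Rhcg was at 20.6 and 25.8 CPM there and at 1.1 to 7.72 CPM elsewhere, whereas its relative Rhbg was at 58 to 74.2 CPM in the Tspan8pos libraries and at 0.472 to 7.69 CPM in the Tspan8neg libraries. Slc26a4, the anion exchanger pendrin, was at 12.7 and 18.1 CPM in Tspan8neg MHCIIhi and at 24.5 and 19.1 CPM in Tspan8pos MHCIIhi.

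Of the other cell types whose markers were summed, the 3 ciliated cell markers in the table were at 187 and 228 CPM in Tspan8pos MHCIIlo and at 84.9 to 131 CPM elsewhere. These markers did not move together. Dnah5 was at 93.4 and 116 CPM in Tspan8pos MHCIIlo and at 11.2 to 29.5 CPM elsewhere. Foxj1 was at 92.9 and 111 CPM there against 62.5 to 109 CPM. Tekt1 was lowest there, at 0.55 and 0.546 CPM against 2.19 to 7.58 CPM. The 3 cortical epithelial markers were at 44.5 to 210 CPM over all libraries.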
